A study of Mus musculus with 4 samples.

Results

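The respiratory chain subunits encoded in the nucleus were compared between dental pulp cells of the mouse molar and of the mouse incisor, complex by complex. Members were taken by gene symbol from the authors' deposited table: the Nduf subunits of complex I, Sdha to Sdhd of complex II, the Uqcr genes of complex III, the subunits of the Cox4 to Cox8 series of complex IV and the Atp5 genes of complex V. That gave 81 genes of 23712 single-gene symbols, namely 37 for complex I, 4 for complex II, 8 for complex III, 16 for complex IV and 16 for complex V. The hypoxia isoform Cox4i2, the supercomplex factor Cox7a2l and the complex I assembly factor Atp5sl were left out and are given separately. The symbol patterns do not take in Cyc1, the cytochrome c1 of complex III, and they place Ndufa4 with complex I, although this protein is now known as a subunit of complex IV.

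Both groups came from mice of the strain XLacZ4, a reporter line that makes bacterial beta-galactosidase in the mural cells of blood vessels, that is pericytes and vascular smooth muscle. Teeth had been dissociated, stained with the beta-galactosidase substrate FDG and sorted for positive cells, with 2 libraries for molar and 2 for incisor, and neither age nor any treatment is given. The incisor labels name that tooth, while their protocol text speaks of molars. Nothing states that the 2 libraries of a tooth came from separate animals. The authors combined them into 1 FPKM value per tissue (fragments per kilobase of transcript, scaled for depth), so no value below has a replicate error and the depth is unknown. In bulk RNA such as this, fewer cells of a type cannot be told apart from less RNA per cell.

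The respiratory chain sits in the inner mitochondrial membrane. Complexes I and II pass electrons from NADH and succinate to ubiquinone, complex III passes them on to cytochrome c, and complex IV hands them to oxygen, while complexes I, III and IV pump protons and complex V, the ATP synthase, uses the returning protons to make ATP. Complex II is also the succinate dehydrogenase of the citrate cycle and pumps no protons. Complexes I, III, IV and V combine subunits made from nuclear genes with a few core subunits made from mitochondrial DNA, and complex II is wholly nuclear. Most subunits are present once in each complex, whereas the c subunit of the ATP synthase forms a ring and is made from 3 nuclear genes, Atp5g1, Atp5g2 and Atp5g3, whose proteins carry different import sequences but share the same mature form.

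The promoters below are shown because they belong to genes called in each direction, the c subunit genes of complex V, called higher in molar, and Sdha and Sdhd of complex II, called higher in incisor. They are RefSeq sequences of GRCm38.p6, read 5′ to 3′ from 250 bases before to 50 bases after the start of transcription. Capitals mark letters of 3 motifs searched on both strands: GCGCA followed by any base and then GCGC, for NRF1, a factor of many mitochondrial genes; CCGGAAG, for ETS factors such as GABP (NRF2); and AAGATGG, for YY1. The last 3 letters of the ETS run are the first 3 of the YY1 run, so matches of both can overlap.

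Atp5g1, chr11:96075582-96075881, minus strand: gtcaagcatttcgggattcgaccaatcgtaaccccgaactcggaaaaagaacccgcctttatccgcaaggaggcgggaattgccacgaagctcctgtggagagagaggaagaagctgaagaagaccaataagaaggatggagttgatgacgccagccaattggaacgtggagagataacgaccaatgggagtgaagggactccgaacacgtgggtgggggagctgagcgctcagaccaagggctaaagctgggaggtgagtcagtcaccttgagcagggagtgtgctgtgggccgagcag

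Atp5g2, chr15:102670998-102671297, minus strand: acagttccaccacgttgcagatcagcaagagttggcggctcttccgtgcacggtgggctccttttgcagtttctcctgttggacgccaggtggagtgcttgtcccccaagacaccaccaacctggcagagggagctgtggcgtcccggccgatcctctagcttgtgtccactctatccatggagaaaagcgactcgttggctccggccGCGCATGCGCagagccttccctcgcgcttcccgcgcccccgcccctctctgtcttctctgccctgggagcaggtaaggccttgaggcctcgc

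Atp5g3, chr2:73911277-73911576, minus strand: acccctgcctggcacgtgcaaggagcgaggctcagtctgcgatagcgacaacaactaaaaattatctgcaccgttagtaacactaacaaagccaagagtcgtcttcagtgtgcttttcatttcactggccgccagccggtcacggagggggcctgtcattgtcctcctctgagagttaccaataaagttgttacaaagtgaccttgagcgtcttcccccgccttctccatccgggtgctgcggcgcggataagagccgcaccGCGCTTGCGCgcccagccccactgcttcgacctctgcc

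Sdha, chr13:74350191-74350490, minus strand: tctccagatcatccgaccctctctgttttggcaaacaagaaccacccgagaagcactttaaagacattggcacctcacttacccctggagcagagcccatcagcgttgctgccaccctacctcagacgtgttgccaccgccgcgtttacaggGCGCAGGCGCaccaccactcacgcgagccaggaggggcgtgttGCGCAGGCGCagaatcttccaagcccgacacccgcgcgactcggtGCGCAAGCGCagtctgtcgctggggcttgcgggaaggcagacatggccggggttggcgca

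Sdhd, chr9:50603800-50604099, minus strand: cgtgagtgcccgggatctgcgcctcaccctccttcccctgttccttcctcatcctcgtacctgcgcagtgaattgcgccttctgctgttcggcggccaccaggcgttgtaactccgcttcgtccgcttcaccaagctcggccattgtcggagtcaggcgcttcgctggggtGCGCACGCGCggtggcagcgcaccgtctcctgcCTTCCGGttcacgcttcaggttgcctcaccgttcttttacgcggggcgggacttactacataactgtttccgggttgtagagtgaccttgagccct

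The letters of the NRF1 site stood in the windows of Atp5g2, Atp5g3, Sdha and Sdhd, with 3 matches in Sdha, and no searched run was found in the window of Atp5g1. A promoter was found for 68 of the 81 members, and 17 of them (25%) held the NRF1 letters, against 5.19% of 27025 genes with a promoter and 8.57% of those tested in the comparison. The ETS letters were found in 16 members (23.5%, against 9.93% of all genes and 15.0% of tested genes) and the YY1 letters in 11 (16.2%, against 7.28% and 7.69%). Members with the NRF1 letters included both directions, 8 called higher in molar, 2 called higher in incisor and 7 not called. The 51 without them divided into 20, 0 and 31. Ndufs1, also called higher in incisor, is not among the 68 with a promoter. These are matches of letters and not measured binding.

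In the authors' deposited table a gene is named as called below where its q value lay under 0.05. Of the 81 members 80 were tested, and 30 were called higher in molar, 3 were called higher in incisor and 47 were not called. Over all 18770 tested rows, 11.9% were called higher in molar, 4.28% higher in incisor and 16.2% in either direction. For the members these shares were 37.5%, 3.75% and 41.3%. All tested rows had median levels of 2.11 FPKM in incisor and 2.23 in molar, against 114 and 298 for the members. Among tested genes with a mean of at least 5 FPKM, 35.9% of those up to 1000 bases were called higher in molar. From 1000 to 2000 bases the share was 35.1%, near that of the members. The difference log2((molar FPKM + 1) / (incisor FPKM + 1)) had a median of 0.89 over the members and of 0.21 over all tested rows. Of the 30 called higher in molar, 22 carried the smallest q of the table, 0.000664, which does not rank them further. The level was above 0 in both tissues for every called member. Of the 47 members not called, 35 stood within 2-fold between the tissues, and of the 45 with both values above 0, 3 lay more than 4-fold apart (Atp5d, Ndufs7 and Cox7b2).

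**Figure D1:**
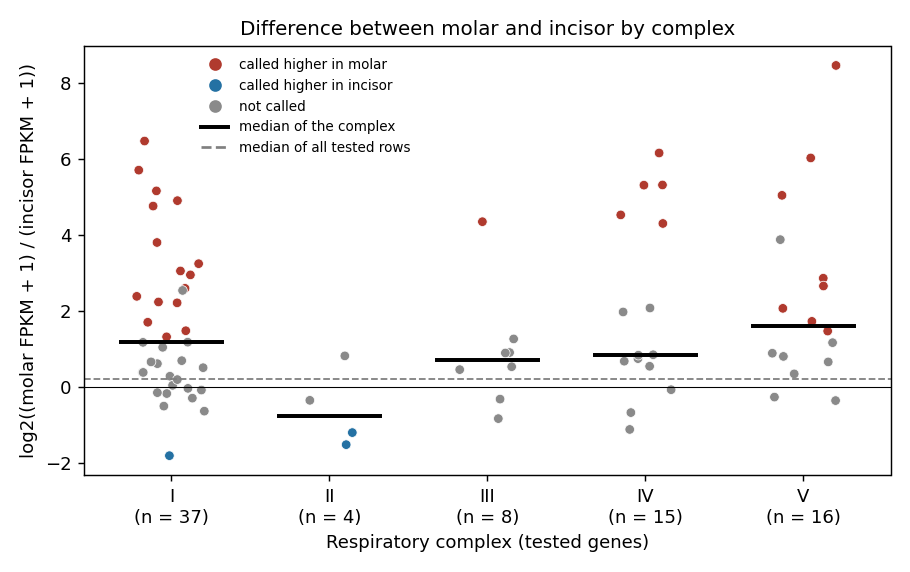
Difference between molar and incisor for each tested subunit, as log2((molar FPKM + 1) / (incisor FPKM + 1)), by complex. Points are genes, black bars the median of a complex and the dashed line the median of all tested rows. The medians of complexes I, III, IV and V lie above that line and the median of complex II, -0.79, lies below 0.

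The complexes did not show one common difference. The median was 1.17 for complex I, -0.79 for complex II, 0.71 for complex III, 0.84 for complex IV and 1.59 for complex V. The value of complex IV was 2.57 without its tissue isoforms, but no gene of the complex lay near that value. It is only the midpoint between Cox7a2 at 0.84 and Cox8a at 4.30. The value of complex I was 0.37 without members that share over 10% of their sequence, read in words of 32 bases, with other genes. Called higher in molar were 16 of 37 genes of complex I, 0 of 4 of complex II, 1 of 8 of complex III, 5 of 15 tested genes of complex IV and 8 of 16 of complex V. Called higher in incisor were 2 genes of complex II and 1 of complex I. The share of complex III, 12.5%, is near the 11.9% of all tested rows. All transcripts of complex III are shorter than 2000 bases. For tested genes with a mean of at least 5 FPKM the share was 35.9% up to 1000 bases and 35.1% from 1000 to 2000 bases. No test of samples compares one complex with another here, and the medians are a description of these libraries. When FPKM values were rescaled to equal totals, all complexes moved toward incisor, and the median of complex III came to 0.12 while complex II reached -1.38.

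Within a complex the molar differences were uneven. Of the 30 members called higher in molar, 15 were more than 10-fold higher. In all 15 the incisor value was under 40 FPKM, with a median of 9.89 against 345 in molar. A cut on the fold itself picks genes with low incisor values, so this is a description of the picked genes only. Among the 75 members other than the tissue isoforms of complex IV, 16 stood under 20 FPKM in incisor and 2 in molar, and 41 stood at 100 or more in incisor and 66 in molar. The standard deviation over these genes of log2(FPKM + 1) was 2.37 in incisor and 1.47 in molar. It was wider in incisor for complex I (2.26 against 1.32), complex III (2.36 against 1.72), complex IV (2.73 against 1.38) and complex V (2.67 against 1.56), and narrower for the 4 genes of complex II (0.73 against 1.41).

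**Figure D2:**
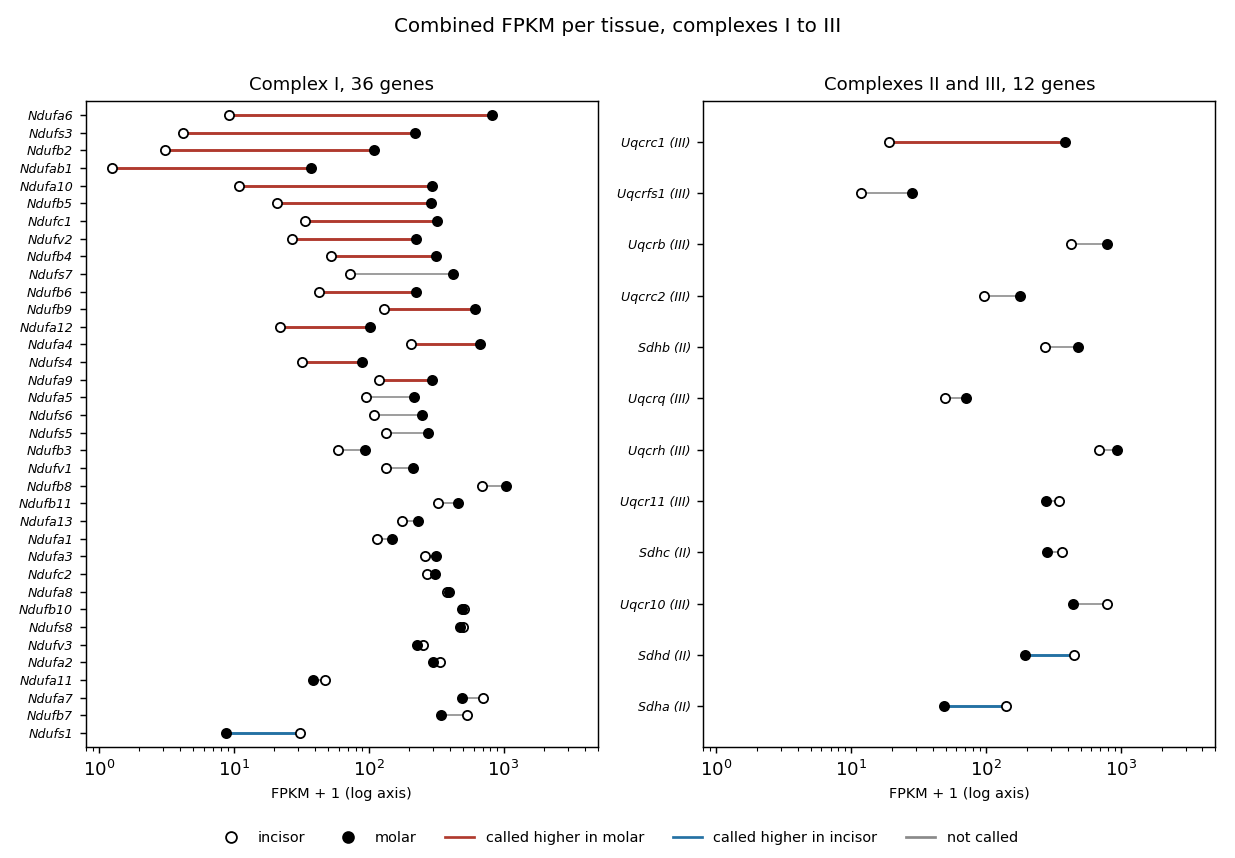
Combined FPKM + 1 of the subunits of complexes I to III, with 1 subunit of complex I not shown, in incisor (open) and molar (filled) on a log axis, with 1 line per gene coloured by its call. The genes called higher in molar have incisor values from 0.261 FPKM for Ndufab1 to 206 for Ndufa4, and Sdha, Sdhd and Ndufs1 run the other way.

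Complex I takes electrons from NADH through the flavin subunit Ndufv1 and a chain of iron-sulfur subunits. Among its 7 core subunits encoded in the nucleus, 3 were called for molar, 1 for incisor and 3 for neither. Ndufs3, a core subunit of the arm that reaches into the matrix (chromosome 2, 90894636 to 90904721), stood at 3.23 FPKM in incisor and 220 in molar, a 68.0-fold difference with q = 0.000664. Ndufv2, an iron-sulfur subunit beside the flavin site, stood at 25.9 and 222 and was 8.55-fold higher in molar.

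Ndufs1, the largest subunit of complex I and the carrier of several iron-sulfur clusters (chromosome 1, 63114471 to 63176822), went the other way. It stood at 30.1 FPKM in incisor and 7.80 in molar, a 3.85-fold difference with q = 0.0274 in the authors' deposited table. It was the single complex I gene called higher in incisor and had the lowest molar value of the complex. Its row shares its interval with another row, as do those of 13 members in all. Of these 13, 4 were called, Ndufs1 for incisor and Ndufa10, Atp5b and Atp5f1 for molar. Ndufv1, which binds the flavin and NADH, was not called (incisor 135, molar 212, q = 0.237). Ndufs8, another iron-sulfur subunit, was not called either, at 501 and 471. Ndufs7, at 72.4 and 424 with q = 0.471, lies in an interval of 672333 bases that 49 rows share, and its value is uncertain.

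The accessory subunits surround this core. Of the 13 genes of the A series, 5 were called for molar and 0 for incisor. Ndufa6, which docks the mitochondrial acyl carrier protein to the complex (chromosome 15, 82350139 to 82354291), was the highest of these in fold, at 8.21 FPKM in incisor and 817 in molar, 99.5-fold with q = 0.000664 in the authors' deposited table. Ndufa10 stood at 9.89 and 294, a 29.7-fold difference. Ndufa12 (21.1 and 101), Ndufa4 (206 and 669) and Ndufa9 (118 and 296, q = 0.0428) were higher in molar by smaller folds of 4.79, 3.25 and 2.50. Ndufa8 (383 and 392), Ndufa7 (698 and 489) and Ndufa2 (340 and 299) were not called, nor was Ndufa5, at 94.8 and 215 with q = 0.0519, just above the threshold.

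The B series belongs to the far end of the membrane arm, and 5 of its 10 genes were called higher in molar. Ndufb2 stood at 2.07 FPKM in incisor and 109 in molar (52.5-fold), and Ndufb5 at 19.9 and 290 (14.6-fold), both with q = 0.000664 in the authors' deposited table. Ndufb4, Ndufb6 and Ndufb9 were higher in molar by 6.12-fold, 5.30-fold and 4.72-fold. The other 5 members of the series stood within 2-fold, among them Ndufb8, the highest molar value of complex I at 1046 against 687 in incisor, Ndufb10 (509 in incisor and 493 in molar) and Ndufb7 (537 and 343). The series therefore held genes called with large folds beside genes of nearly equal level. Ndufab1, the mitochondrial acyl carrier protein, which serves fatty acid synthesis as well as complex I, stood at 0.261 in incisor and 36.7 in molar, a 140-fold difference with q = 0.0345. Ndufc1 (32.9 and 320) and Ndufs4 (31.1 and 88.1) were the remaining accessory genes called higher in molar.

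Complex II had no gene called higher in molar. Sdha, the flavoprotein that oxidises succinate (chromosome 13, 74322255 to 74350240), stood at 139 FPKM in incisor and 47.5 in molar, in the authors' deposited table, and was 2.93-fold higher in incisor (q = 0.0139). Sdhd, a membrane anchor that helps form the ubiquinone site (chromosome 9, 50596340 to 50603849), stood at 445 and 192, 2.32-fold higher in incisor with q = 0.0288. Sdhb, the iron-sulfur subunit, was not called (incisor 271, molar 476, q = 0.194). Sdhc, the partner anchor of Sdhd, was not called, at 360 and 280 with q = 0.380. The catalytic pair Sdha and Sdhb thus had values in opposite order, and neither Sdha nor Sdhd shared any 32-base word with another gene. With q under 0.01 none of the 4 genes was called.

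In complex III a single gene was called. Uqcrc1, the first core protein of the matrix side (chromosome 9, 108936648 to 108949641), stood at 17.9 FPKM in incisor and 384 in molar, 21.4-fold higher in molar with q = 0.000664 in the authors' deposited table. Its partner core protein Uqcrc2 was not called, at 95.3 and 177 with q = 0.157. Uqcrfs1, the Rieske iron-sulfur protein that passes electrons to cytochrome c1, stood at 10.8 and 27.3 with q = 0.0619. The 5 small subunits all lay within 2-fold and none was called: Uqcrb (422 in incisor and 787 in molar), Uqcrh (679 and 927), Uqcrq (48.5 and 70.3), Uqcr11 (346 and 275) and Uqcr10 (784 and 436). Cyc1, outside the symbol patterns, stood at 19.5 and 57.8 with q = 0.0561.

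**Figure D3:**
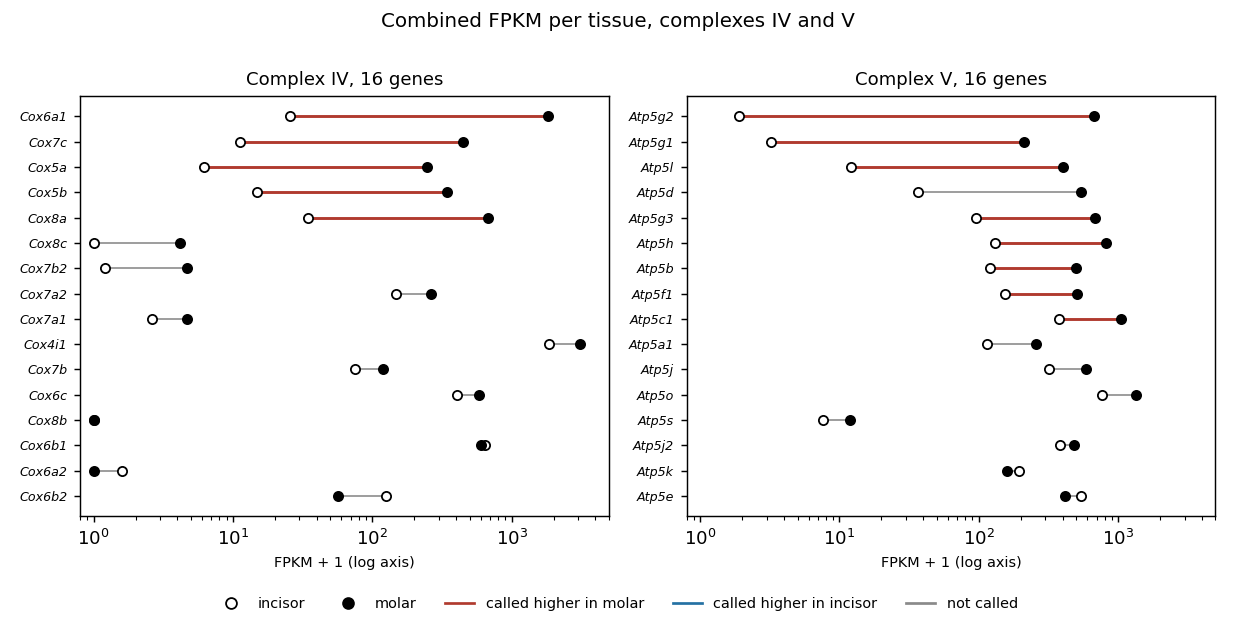
Combined FPKM + 1 of each subunit of complexes IV and V in incisor (open) and molar (filled) on a log axis, with 1 line per gene coloured by its call. In complex IV, Cox6a1, Cox7c, Cox5a, Cox5b and Cox8a are low in incisor and high in molar while Cox4i1 is high in both. In complex V, Atp5g1 and Atp5g2 have incisor values of 2.25 and 0.916 FPKM.

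Nuclear subunits of complex IV surround a catalytic core made from mitochondrial DNA, which has no row in the table. Cox4i1, which joins the core early in assembly, was the most abundant member of all 81, with an FPKM of 1846 in incisor against 3079 in molar. It was not called (q = 0.252). Cox5a, which binds next to Cox4i1 (chromosome 9, 57521232 to 57532426), stood at 5.18 and 244, 47.1-fold higher in molar with q = 0.000664 in the authors' deposited table. Cox5b, a zinc-binding subunit, stood at 14.0 and 345, a 24.6-fold difference. Cox4i1 and Cox5a, neighbours in the enzyme, thus had folds of 1.67 and 47.1, and Cox5a shares 46.3% of its words with other genes, which makes its value uncertain.

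The small subunits of complex IV divided in the same way. Cox6a1 stood at 24.6 FPKM in incisor and 1828 in molar (74.2-fold), Cox7c at 10.2 and 445 (43.6-fold) and Cox8a at 33.6 and 680 (20.3-fold), each with q = 0.000664 in the authors' deposited table. Cox6b1, which faces the intermembrane space, stood at 639 and 604 and was not called. Cox6c (404 and 587), Cox7a2 (147 and 263) and Cox7b (74.1 and 119) were not called either. All 5 called genes of complex IV were more than 20-fold higher.

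Several subunits of complex IV have a second isoform known from muscle or testis, and none of these was called. The heart and skeletal muscle isoforms Cox6a2, Cox7a1 and Cox8b were low: Cox6a2 stood at 0.607 FPKM in incisor against a listed 0 in molar, Cox7a1 stood at 1.64 and 3.68, and Cox8b was listed at 0 in both tissues and was not tested. The testis isoforms Cox7b2 (0.203 and 3.71) and Cox8c (listed at 0 in incisor, 3.20 in molar) were low as well. Cox6b2, also known from testis, had the highest level of these isoforms (incisor 124, molar 56.0, q = 0.193). Of the skeletal muscle markers Acta1, Ckm, Myh4 and Tnnt3, 0 of 3 tested were called, and their summed level was 2.98 in incisor and 3.99 in molar.

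In complex V all 3 genes of the c subunit were called higher in molar. Atp5g2 (chromosome 15, 102662868 to 102671047) had the largest fold of all members, 738, at 0.916 FPKM in incisor and 676 in molar with q = 0.00176 in the authors' deposited table. Atp5g1 (chromosome 11, 96072793 to 96075694) stood at 2.25 and 211, a 93.8-fold difference. Atp5g3 (chromosome 2, 73908447 to 73911326) stood at 93.8 and 686, a 7.31-fold difference. In incisor Atp5g3 was by far the highest of these genes, whereas in molar Atp5g2 and Atp5g3 stood at nearly the same level. Atp5g2 shares 87.7% of its 32-base words with other genes and Atp5g1 shares 67.3%, so the values of both are uncertain. Atp5g3 shares none, but only exact words of annotated transcripts were compared, and copies with mismatches were not looked for.

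The catalytic head of the ATP synthase, F1, held 2 called genes of 5. Atp5b, the beta subunit that carries the catalytic sites, stood at 119 FPKM in incisor and 500 in molar, 4.21-fold higher in molar with q = 0.000664, and Atp5c1, the rotating gamma subunit, at 378 and 1046 with q = 0.0316. Atp5a1, the alpha subunit, narrowly missed the threshold, at 114 and 255 with q = 0.0511. Atp5e, the small epsilon subunit of the central stalk, stood at 540 and 418 with q = 0.376. Atp5d, the delta subunit, stood at 35.7 and 536 with q = 0.546, and it lies in the same long shared interval as Ndufs7. In the peripheral stalk, which holds the head still, Atp5h (129 and 818) and Atp5f1 (153 and 506) were called for molar. Atp5o, the stalk's contact with the head, was the highest member of complex V in both tissues, at 767 and 1333, and was not called (q = 0.178), nor was Atp5j (319 and 589). Of the small membrane subunits, Atp5l stood at 11.1 and 398 (35.8-fold), an uncertain value since it shares 85.4% of its words with other genes, while Atp5j2 (381 and 481) and Atp5k (192 and 159) were not called. Atp5s, a coupling factor kept here by its symbol, stood at 6.62 and 11 and was not called.

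Genes left out of the member list gave mixed values. Ndufa4l2, a relative of Ndufa4 known to be induced by hypoxia and enriched in pericytes, stood at 4.35 FPKM in incisor and 145 in molar, 33.4-fold higher in molar with q = 0.000664 in the authors' deposited table. Cox4i2, the hypoxia isoform of Cox4i1, was not called, at 385 and 762 with q = 0.118. Cox4i2 stood below Cox4i1 in both tissues, at an FPKM level well above the other tissue isoforms. Cox7a2l, which joins complexes III and IV into supercomplexes, was not called, at 455 and 346. Atp5sl, also counted among the assembly factors of complex I, was not called, at 14.9 and 21.9 with q = 0.302.

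Around the subunits, genes of the same organelle were counted from lists. Of 46 tested assembly factors, the authors' deposited table called 11 for molar and 1 for incisor, and the median difference was 0.43. Among those higher in molar were Nubpl, which delivers iron-sulfur clusters to complex I (1.02 and 24.1 FPKM), Cox14 (59.2 and 257) and Coa6, a copper chaperone partner (0.351 and 51.1), and Coa5 was higher in incisor (22.7 and 6.73). None of the assembly factors of complexes II (4 genes) and III (6 genes) was called. Cytochrome c, Cycs, was called for molar (incisor 2.77, molar 27.5), as were 4 of the 6 carrier and pore genes. Slc25a4, which exchanges ADP for ATP, stood at 355 and 2316, while its relative Slc25a5 was not called, at 2462 and 2028. Of the 11 genes for ubiquinone synthesis, Coq4, Coq5, Coq6 and Coq9 were higher in molar.

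The citrate cycle and pyruvate dehydrogenase divided, and the authors' deposited table called 5 of 16 genes for molar and 6 for incisor. Among those higher in incisor were Cs, the citrate synthase (116 and 33.9 FPKM), Idh3a (76.1 and 26.7), Ogdh (43.0 and 9.04), Dld (48.2 and 9.90) and Pdha1 (54.3 and 20.1). Higher in molar were Suclg1 (82.9 and 192), Sucla2 (4.91 and 61.7), Fh1, the fumarase (9.72 and 141), Mdh2, the malate dehydrogenase (47.2 and 690), and Pdhb (37.9 and 129). Sdha and Sdhd of complex II, at the same step of the cycle as each other, belong with the first group in direction. Even subunits of a single enzyme were called in opposite directions, as with Pdha1 and Pdhb of pyruvate dehydrogenase.

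Of 15 regulators of mitochondrial genes, 3 were called, all for molar. That is 20%, against 11.9% of all tested rows called for molar and 16.2% in either direction. Tfam, which packages and transcribes mitochondrial DNA, stood at 1.65 FPKM in incisor and 12.3 in molar with q = 0.000664 in the authors' deposited table. Tfb2m (0.766 and 3.10) and Ssbp1 (21.4 and 65.1) were higher in molar too. Ppargc1a, the coactivator PGC-1alpha, was not called, at 2.32 and 1.10. Nrf1 (2.85 and 6.35), the ETS factor Gabpa (4.44 and 1.48) and Yy1 (4.84 and 8.43), whose motifs were searched in the promoters, were not called. Of 15 import and inner membrane genes 6 were higher in molar, among them Timm23 (0.177 and 70.8), while Hspd1, Hspa9 and Immt were not called.

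**Figure D4:**
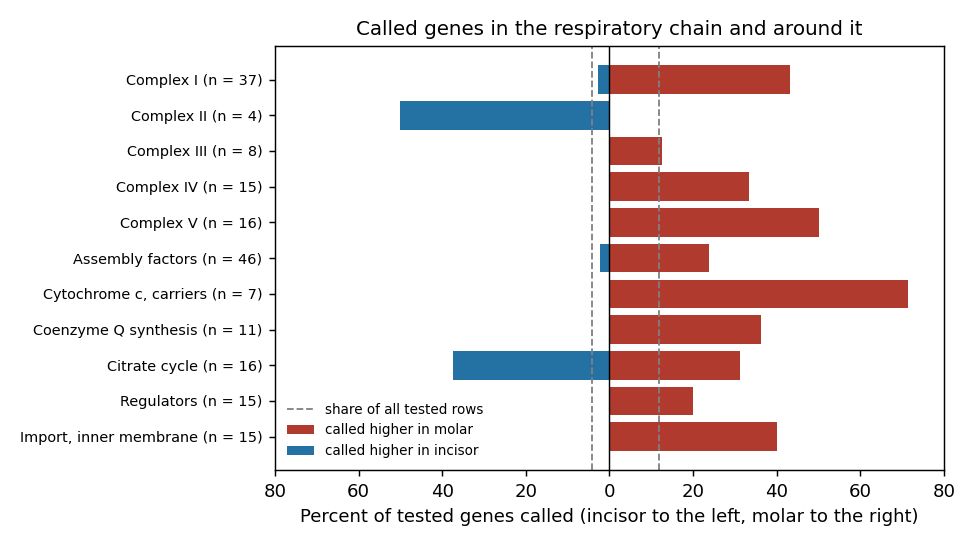
Percent of tested genes called higher in incisor (left, blue) and higher in molar (right, red) in each complex and in lists of related mitochondrial genes, with dashed lines at 4.28% and 11.9%, the shares over all tested rows. The longest bars to the left are those of complex II and the citrate cycle, and complex I and the assembly factors have 1 incisor call each.

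Ribosomal proteins also form complexes of fixed composition, and their counts are given beside those of the members. Of 74 mitochondrial ribosomal protein genes 31 were called for molar and 0 for incisor (41.9% called), with a median difference of 0.96, and of 85 cytosolic ribosomal protein genes 48 and 2 (58.8% called), with a median of 2.02. For the members 41.3% were called, with a median of 0.89. These sets were not tested against each other.

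The difference between the tissues moved with transcript length over the whole table, and respiratory chain transcripts are short, with a median of 704 bases. For tested genes with a mean of at least 5 FPKM, the median difference was 0.89 for 838 genes of up to 1000 bases, 0.74 for 2184 genes of up to 2000 bases, -0.11 for 1696 genes of up to 3000 bases and -0.43 for 1811 longer genes. The share called higher in molar went from 35.9% in the shortest class to 9.0% in the longest, and the share called higher in incisor from 2.27% to 19.4%. In the same classes the 52 shortest members had a median of 0.86, with 19 called for molar and 0 for incisor, and the 18 members of the next class had 1.28. The 4 members of 2000 to 3000 bases had a median of -0.19. The 2 longer members went opposite ways, Sdhc at -0.36 and Ndufab1 at 4.90. Their median of 2.27, against -0.43 for all genes of that class, is only the midpoint of these values. The 3 members called higher in incisor, Sdhd, Ndufs1 and Sdha, had transcripts of 1231, 2661 and 2900 bases. Length classes were chosen after the values were seen, and the part of length in the members' differences was not tested.

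**Figure D5:**
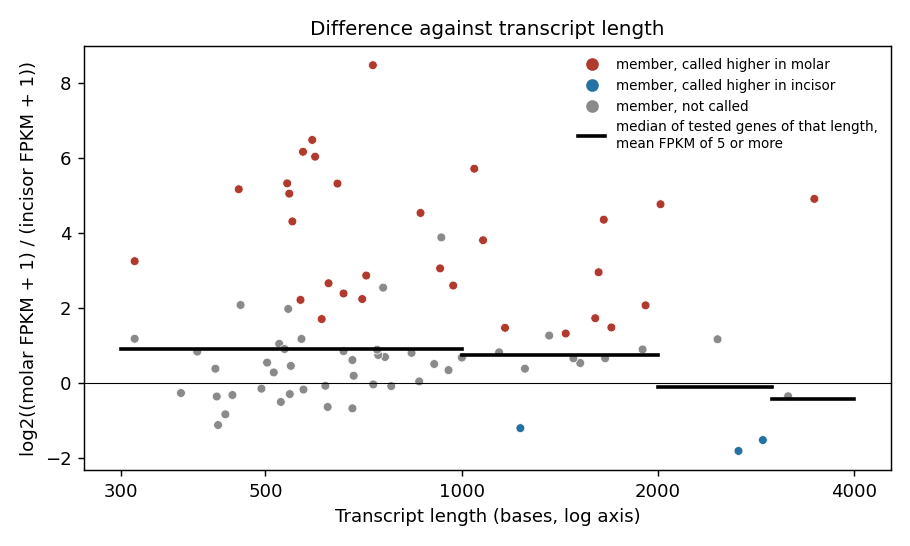
Difference between molar and incisor of each tested subunit against the length of its transcript, with black bars at the median of tested genes of that length class. Members of up to 1000 bases scatter around a bar at 0.89, and Ndufs1 and Sdha lie among the few members above 2000 bases.

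Many respiratory chain genes have processed pseudogenes, and reads from near-identical copies can be divided between them. Of the 81 members 36 shared more than 10% of their 32-base words with the transcripts of other genes. Those other genes were of any kind and not only pseudogenes. For Ndufb5, Ndufb6, Ndufb9, Uqcrc2, Cox4i1, Cox5b and Cox6a1, all over 10%, none of them was a pseudogene. Of the 36 members over 10%, 19 were called for molar and 0 for incisor, and of the 44 tested members at or under 10%, 11 and 3 were called. The shared portion had a median of 20.6% over the 30 members called higher in molar and 3.66% over the 47 not called. With members over 10% left out, the median difference was 0.37 for complex I, -0.79 for complex II, 0.89 for complex III, 0.83 for complex IV, 1.61 for complex V and 0.66 over all members. These medians rest on few genes. The 0.83 of complex IV is the value of the tissue isoform Cox7a1, and Cox8a was the only called gene left in that complex. Complex III kept only Uqcr10, Uqcrc1, Uqcrfs1 and Uqcrq, and complex V still held Atp5d with its long shared interval. Of the 15 members more than 10-fold higher in molar, 11 shared more than 10%, with a median of 32.1% over the 15. The other 4 were Ndufa6 and Cox8a, which share no word, Ndufa10 (0.05%) and Uqcrc1 (0.986%). Besides the genes named above with this limit, Ndufs3 (54.0%), Ndufb2 (44.8%), Cox7c (55.4%), Atp5h (60.3%), Ndufa12 (58.7%) and Atp5f1 (46.3%) share over 40% of their words, and their values are uncertain too. The same holds for Atp5o (62.5%), Uqcrb (57.3%) and Ndufs5 (47.0%), which were not called. How the authors assigned reads that match several places is not given, and the part of shared sequence in the called differences was not tested.

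Markers of other cells in the sort moved between the tissues as well. The 7 dental epithelial markers summed to 23476 FPKM in incisor and 2631 in molar, and all 7 were called higher in incisor. The 7 endothelial markers summed to 10.3 and 238, with all 7 called higher in molar and Cldn5 listed at 0 in incisor, and 7 genes that respond to tissue dissociation summed to 413 and 5360, with 6 called higher in molar. Amelx, the enamel protein amelogenin, alone stood at 20642 and 1937. Of the 9 mural markers, which the sort was meant to collect, 3 were called for incisor (Rgs5, Pdgfrb and Tagln) and 1 for molar (Kcnj8), and they summed to 828 and 320. The 7 macrophage markers summed to 5066 and 7420 (1 called for molar, 2 for incisor), the 4 erythroid markers to 5.94 and 201 (3 and 0), the 6 odontoblast and osteoblast markers to 482 and 166 (0 and 2), the 4 fibroblast markers to 2028 and 3981 (1 and 1) and the Schwann cell markers to 23.9 and 4.26 (0 and 0). The part of these cells and of handling in the subunit values was not tested, and with 1 combined value per tissue preparation and tooth cannot be told apart.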

How the data were processed

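RNA from sorted FDG-positive pulp cells was described for 4 libraries, 2 per tooth. The submitters' processing notes name edgeR, HISAT2 2, Trim Galore and the build mm10, without their roles. The deposited table holds 1 FPKM value per tissue, a log2 fold change (molar over incisor), a test score, a p-value and a q-value, per the file headers. Its tool, scaling and annotation are not given, and the authors combined the libraries before they deposited it.

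The authors' q values were used with a threshold of 0.05, and no test of samples was possible. Medians used log2 with a pseudocount of 1. Each symbol was 1 row, the row with the highest mean FPKM. No member had a second row. Start positions were moved by 1 base to 1-based coordinates on mm10. Transcript length and shared words of 32 bases came from GENCODE M21, using the shortest coding transcript with a RefSeq mRNA. Where a gene had none with a RefSeq mRNA, its longest coding transcript was used. Promoters came from RefSeq, GRCm38.p6. The counting script was checked on a made-up table (Python 3.11.15, pandas 2.3.3, numpy 2.4.6).

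By the rule, genes named were called members, the highest and most different members of each complex, its defining subunits and paralogs, and called genes of the other lists, of which some are given as counts. Single values of 2 genes are not reported here. Members and lists were chosen with earlier results of these data known. Of the listed genes 4 were found under older symbols (Ndufaf8, Coq8a, Coq8b and Twnk), and Sco2, Cox16 and Pet117 had no row of their own.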

Additional observations from a re-analysis of the deposited data

How the results depend on the processing

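Depth is unknown, so low values carry no interval. No paired analysis was possible because the table holds 1 combined value per tissue, and for the same reason no library could be left out. Medians of the difference were taken as moved when they changed by more than 0.1 on the log2 scale. Over all genes above 0 in both tissues the median log2 fold was 0.22, and the log2 ratio of the FPKM totals was 0.60. Centring on that median gave 0.94 for complex I, -1.01 for complex II, 0.48 for complex III, 0.66 for complex IV, 1.37 for complex V and 0.67 over all members. Equal totals gave 0.58, -1.38, 0.12, 0.38, 1.00 and 0.34 in the same order. No median changed sign under any setting tried. Among called genes with a finite fold the absolute log2 fold was at least 1.10, above both shifts, and calls under another scaling could not be computed.

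Other settings moved single complexes. Complex IV gave 1.12 with a pseudocount of 0.1, 0.74 with a pseudocount of 5, 2.57 without tissue isoforms and 1.27 with Ndufa4 counted in it. The 2.57 is only the midpoint between Cox7a2 at 0.84 and Cox8a at 4.30. Complex V gave 1.72 without Atp5s and 1.46 without Atp5d. Leaving out members with over 10% of shared words, a setting added after the data were seen (as was leaving out Atp5d and Ndufs7), gave 0.37 for complex I, 0.89 for complex III and 0.66 over all members. With q under 0.01, 0 genes of complex II were called in place of 2, and with q under 0.10, 2 genes of complex III in place of 1. By the authors' own mark of significance, which reaches q = 0.06, 35 members were marked in place of 33, adding Ndufa5 and Atp5a1. The cause of these shifts was not tested.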
